A study of Mus musculus with 6 samples.

Results

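Complement mRNA was examined in the sensory epithelium of the newborn mouse inner ear through 9 genes, C3, C2, C4b, Cfi, Cfb, Masp1, Serping1, C3ar1 and C5ar1, out of 39179 genes in the count files. These components, regulators and receptors were found in the files by symbol, and each of the 9 symbols matched 1 Ensembl identifier. The EAR dataset holds 3 RNA-seq libraries of the cochlea, the hearing organ, and 3 of the vestibule, the balance organ. All come from wild-type C57Bl/6J mice at P0 with no treatment named, with males and females pooled. Both tissues were taken from 20 ears of 10 mice, with 2.4 µg of total RNA from the cochlea and 1.5 µg from the vestibule. Of this RNA, 450 ng went into each library. The sources give these totals per tissue and do not say that the 3 libraries of a tissue came from separate RNA pools. The p-values therefore measure the spread between these libraries, which may be technical.

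Complement is a cascade of secreted proteins, mostly proteases and their substrates, that tags cells and debris for uptake and can lyse membranes. The classical pathway starts from C1q, the lectin pathway from sugar-binding proteins with the protease Masp1, and the alternative pathway from factor B, and all of them cleave C3. Fragments of C3 and of the next component act on the receptors C3ar1 and C5ar1, while Cfi and Serping1 hold the cascade back. The liver makes most plasma complement, macrophages make C1q and carry the receptors, and in the nervous system complement is also known for the pruning of synapses.

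The libraries held between 24464483 and 33664793 counts on genes, so that 1 CPM (1 count in 1000000 counts on genes) stood for 24.5 to 33.7 counts. A count of 0 allows a level of up to 0.0891 to 0.123 CPM, taking 3 counts as the limit; this covers counting error only. The share of listed counts that fell on no gene was 7.45% in cochlea replicate 3, against 4.30% and 4.73% in the other cochlear libraries and 5.77% to 7.0% in the vestibule. The tissue labels were checked against marker lists. Epyc, a proteoglycan of the cochlea, was at 1230 to 1740 CPM in the cochlea and 15.9 to 24.0 CPM in the vestibule, and Otop1, a gene of the vestibular otoconia, was at 0 to 0.0409 CPM and 20.1 to 28.4 CPM. Of 4 cochlear markers 3 were up-regulated in the cochlea and Otoa was not called, and of 4 vestibular markers 3 were up-regulated in the vestibule while Otogl went the other way (log2 fold change -1.56, edgeR adjusted p = 0.00042). All 7 hair cell markers passed the filter on low counts. Col1a2, a collagen of fibroblasts, was also present, at 1870 to 5250 CPM.

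Of the 9 members, 3 lie within the major histocompatibility complex on chromosome 17 of GRCm38, all on the minus strand: C4b (34728380 to 34743882), Cfb (34856374 to 34862518) and C2 (34862604 to 34898265). Cfb and C2 are 85 bases apart, and a read-through gene model, Gm20547 (34856412 to 34882042), spans both in GENCODE vM21. C3 lies elsewhere on chromosome 17 (57203970 to 57228136), also on the minus strand. The other members are Masp1 on chromosome 16 (23449417 to 23520815), Cfi on chromosome 3 (129835884 to 129875332), Serping1 on chromosome 2 (84765387 to 84775444), C3ar1 on chromosome 6 (122847138 to 122856161) and C5ar1 on chromosome 7 (16246743 to 16259540). The exons of these 6 genes overlap no exon of another gene in that annotation.

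C4b has a near-identical neighbour, C4a, at 34809092 to 34823464 on the same strand, and reads from one can fall on the other. Over 5204 aligned bases of the C4b coding sequence and the C4a transcript, 96.14% were identical, with 201 substitutions and a longest identical run of 433 bases. Of the 5280 distinct 100-base windows of C4b transcripts, 16.5% also occurred in C4a. The stretch where the copies differ most is shown because reads there can be assigned, at bases 2705 to 2764 of the C4b coding sequence, with the 13 differing bases in capitals.
C4b coding sequence: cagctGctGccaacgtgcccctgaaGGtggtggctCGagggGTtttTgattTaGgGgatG
C4a transcript: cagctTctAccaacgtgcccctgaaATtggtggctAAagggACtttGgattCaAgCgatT

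Promoter windows from RefSeq were at hand for 3 members, C3, C3ar1 and C5ar1. They are shown because both receptors were higher in the vestibule and C3 was not called, as described below. Each is the 250 bases before the RefSeq start, on the minus strand of GRCm38.p6. The windows lie at chr17:57228137-57228386 for C3, chr6:122856158-122856407 for C3ar1 and chr7:16259339-16259588 for C5ar1. Most of the C5ar1 window lies inside the gene as annotated in GENCODE vM21, which begins at 16259540 on the minus strand.
C3: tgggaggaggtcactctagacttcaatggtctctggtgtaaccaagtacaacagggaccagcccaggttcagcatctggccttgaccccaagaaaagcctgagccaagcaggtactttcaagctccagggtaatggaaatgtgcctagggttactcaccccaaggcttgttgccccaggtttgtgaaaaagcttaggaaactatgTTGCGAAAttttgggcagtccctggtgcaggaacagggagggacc
C3ar1: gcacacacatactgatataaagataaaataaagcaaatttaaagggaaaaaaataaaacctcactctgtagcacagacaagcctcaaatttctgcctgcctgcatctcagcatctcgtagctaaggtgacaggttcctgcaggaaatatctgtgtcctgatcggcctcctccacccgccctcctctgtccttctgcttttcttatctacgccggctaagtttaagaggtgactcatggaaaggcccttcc
C5ar1: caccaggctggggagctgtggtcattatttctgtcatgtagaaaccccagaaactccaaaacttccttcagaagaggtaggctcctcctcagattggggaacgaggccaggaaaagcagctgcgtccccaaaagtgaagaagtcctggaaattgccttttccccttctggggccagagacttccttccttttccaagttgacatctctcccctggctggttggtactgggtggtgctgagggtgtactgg

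Capitals mark matches to 3 motifs searched on both strands: GAGGAA, bound by ETS factors such as the myeloid factor PU.1, TTCNNNGAA, known as the GAS element, and TTGCNNAA, bound by C/EBP factors. The only match was the last of these, starting 45 bases before the start of C3. These motifs occur in 23.3%, 7.02% and 9.56% of all 32851 promoter windows of that length. No match was found for C3ar1 or C5ar1, which says only that these letters are not in these windows.

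Between the tissues, C2, C4b, Serping1, C3ar1 and C5ar1 were up-regulated in the vestibule and Cfi and Masp1 in the cochlea, while C3 was not called and Cfb was too low to test. These were 5 and 2 of the 8 members that had at least 1 CPM in 3 or more libraries. Over all 14723 genes that passed this filter, 15.8% were up-regulated in the vestibule and 11.6% in the cochlea, 27.4% in all, at an FDR of 0.05 by edgeR's quasi-likelihood test. For the same 7 members the 2 sets of 3 libraries did not overlap, which held for 41.8% of the genes tested. Calls use TMM, which scales the libraries by the bulk of their genes. With library sizes alone the median log2 fold change over all genes moved from 0.00 to 0.13, 2754 genes were called for the vestibule and 1251 for the cochlea in place of 2325 and 1711, and the members split 5 to 1. C2 and C4b reached 1 CPM in 1 cochlear library and C5ar1 in 2, so these 3 members passed the filter only through the vestibule, where they were higher. In bulk tissue, fewer cells of a type and less RNA per cell cannot be told apart. Fold changes are given as log2, vestibule minus cochlea.

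**Figure D1:**
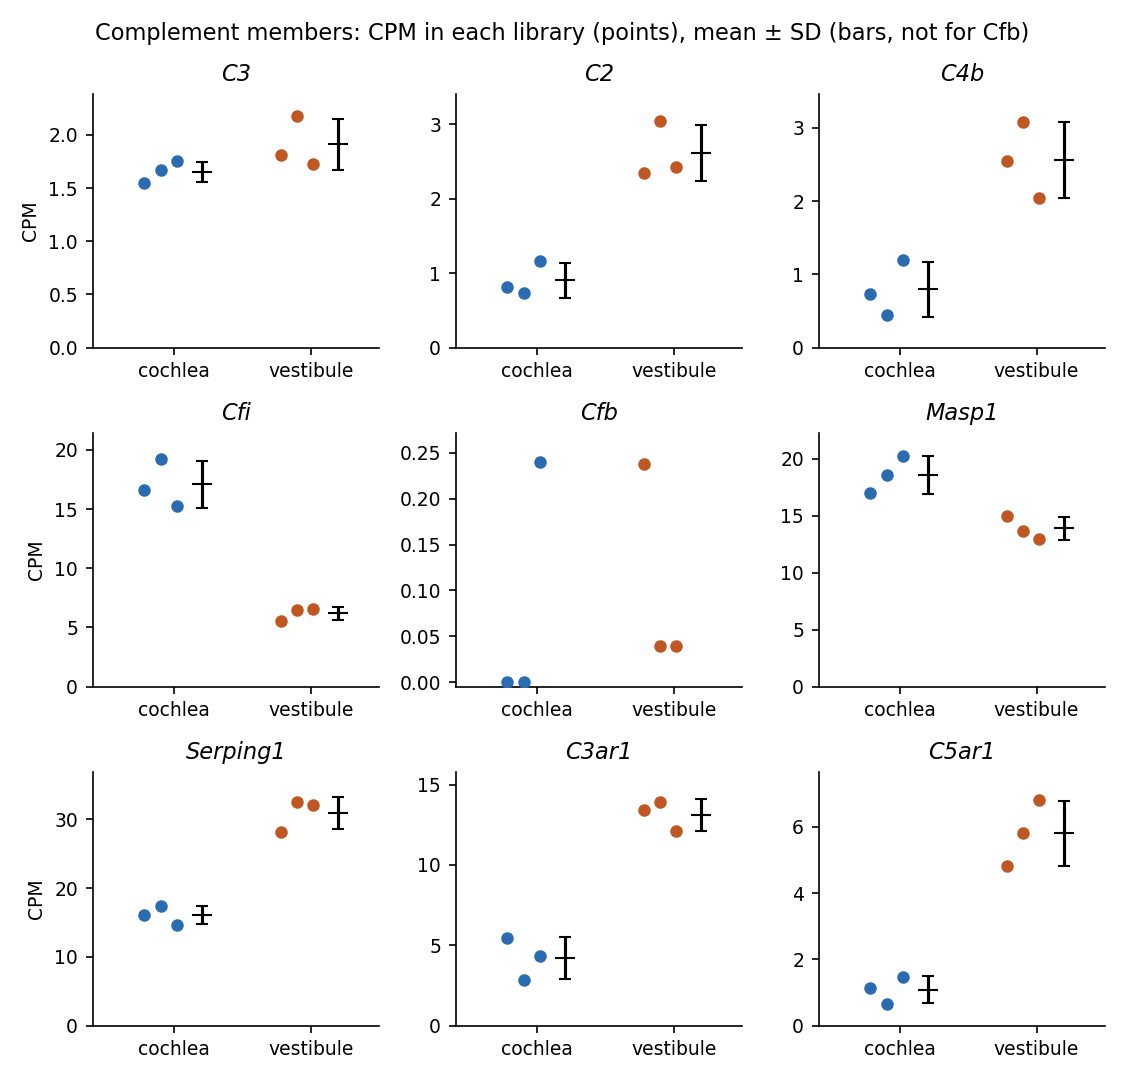
CPM (vertical axes, each starting at 0) of the 9 members in the 3 cochlear (blue) and 3 vestibular (orange) libraries, with the mean and SD in black except for Cfb. The tissues do not overlap for 7 members, C3 lies at 1.55 to 2.18 CPM in all 6 libraries, and Cfb is at or under 0.240 CPM.

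C3, the protein on which all pathways converge, was present at a low level in each tissue. Its counts were 38, 48 and 51 in the cochlea, or 1.55, 1.67 and 1.75 CPM. In the vestibule they were 61, 56 and 44, or 1.81, 2.18 and 1.73 CPM. The tissues overlapped, since vestibule replicate 3 lay below cochlea replicate 3. The log2 fold change was 0.08 with a standard error of 0.23 and an edgeR adjusted p of 0.829. Its 95% interval ran from -0.44 to 0.60. The 3 tested genes whose log2 CPM followed C3 most closely over the 6 libraries were Mroh2a (Pearson's r 0.972), Fgf8 (0.954) and Mok (0.953). This is a description over 6 libraries that share their tissues and depths. The 3 were picked as the highest out of 14723 genes tested, and whether unrelated genes reach such values was not tested.

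C2 and C4b, the components that together form the C3-cleaving enzyme of the classical and lectin pathways, were each higher in the vestibule. C2 had 20, 21 and 34 counts in the cochlear libraries against 79, 78 and 62 in the vestibular ones, or 0.818, 0.729 and 1.16 CPM against 2.35, 3.04 and 2.43 CPM. All 3 vestibular libraries were above the cochlear ones, and the log2 fold change was 1.40 (standard error 0.27, edgeR adjusted p = 0.0048). C4b had 18, 13 and 35 cochlear counts against 86, 79 and 52 vestibular ones, or 0.736, 0.451 and 1.20 CPM against 2.55, 3.08 and 2.04 CPM. Its log2 fold change was 1.56 (standard error 0.35, edgeR adjusted p = 0.01), again with no overlap. For both genes cochlea replicate 3, the library with the largest share of counts on no gene, was the highest cochlear library. Without it the log2 fold changes were 1.61 and 1.97.

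C4a gave 5, 2 and 15 cochlear counts and 57, 30 and 15 vestibular counts and did not pass the filter. With no filter its log2 fold change was 1.97 (edgeR adjusted p = 0.0136). With the counts of C4a and C4b summed to 1 gene, the log2 fold change was 1.69 (edgeR adjusted p = 0.0124). The values of C4b are uncertain to the extent that reads of the copies were exchanged or set aside as not unique.

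Cfb, the protease of the alternative pathway, is known as the counterpart of C2, and it was nearly absent from the counts. Its counts per cochlear library were 0, 0 and 7, and per vestibular library 8, 1 and 1. The 7 counts were in cochlea replicate 3 and the 8 in vestibule replicate 1, and the other 4 libraries were at or under the limit of 3 counts. With no filter its log2 fold change was 0.29 (edgeR adjusted p = 0.888). The annotation bears on this level, because 79.5% of the 2825 exonic bases of Cfb in GENCODE vM21 are also exons of Gm20547, which leaves 579 bases of its own. For C2 the share is 42.8% of 3872 bases. All 3902 exonic bases of Gm20547 belong to C2 or Cfb, and the count files list Gm20547 at 0 in all 6 libraries. Whether the annotation that was counted has the same overlap, and how shared reads were treated, is not given in the sources used here. If reads on shared exons were set aside as ambiguous, the levels of Cfb and C2 would be lower limits, which was not tested. With C2, Cfb and Gm20547 summed, cochlear counts were 20, 21 and 41 and vestibular counts 87, 79 and 63, and the log2 fold change was 1.34 (edgeR adjusted p = 0.00937).

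Masp1, the protease of the lectin pathway, was higher in the cochlea by a small margin. It was at 17.0, 18.6 and 20.3 CPM in the cochlear libraries and at 15.0, 13.7 and 13.0 CPM in the vestibular ones, from 331 to 592 counts per library. The libraries did not overlap, and the log2 fold change was -0.54 (standard error 0.14, edgeR adjusted p = 0.0213), a 1.46-fold difference. The call was lost with library sizes alone in place of TMM, where the log2 fold change was -0.42 (edgeR adjusted p = 0.0652). It was also lost without cochlea replicate 2 and without each vestibular library, with edgeR adjusted p-values of 0.0582 to 0.127. Masp1 encodes several proteins by alternative splicing, and gene counts do not separate them.

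Cfi, the protease that cleaves C3b and C4b with the help of cofactors, was the member with the clearest cochlear bias. It was at 16.6, 19.2 and 15.3 CPM in the cochlea and 5.53, 6.46 and 6.59 CPM in the vestibule, from 166 to 554 counts. The lowest cochlear library was thus above the highest vestibular one. The log2 fold change was -1.58 (standard error 0.19, edgeR adjusted p = 0.000388), or 2.99-fold higher in the cochlea.

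Serping1, the C1 inhibitor, which blocks the proteases of the classical and lectin pathways, was higher in the vestibule. It was at 16.1, 17.4 and 14.7 CPM in the cochlea and 28.2, 32.5 and 32.1 CPM in the vestibule, from 394 to 949 counts. The libraries of each tissue lay close together, with a coefficient of variation of 8.33% and 7.65%. The log2 fold change was 0.82 (standard error 0.15, edgeR adjusted p = 0.00417), so these 2 soluble regulators changed in opposite directions.

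The anaphylatoxin receptors were both higher in the vestibule. C3ar1 was at 5.48, 2.85 and 4.35 CPM in the cochlea and 13.4, 13.9 and 12.1 CPM in the vestibule, from 82 to 452 counts. Every vestibular library was above every cochlear one, and the log2 fold change was 1.53 (standard error 0.23, edgeR adjusted p = 0.00144). C5ar1 was at 1.14, 0.660 and 1.47 CPM in the cochlea and 4.81, 5.80 and 6.79 CPM in the vestibule, from 19 to 173 counts. It had the largest fold change among the 8 members tested, 2.30 on the log2 scale (standard error 0.32, edgeR adjusted p = 0.000797), a 4.92-fold difference. In the cochlea the 3 libraries of these receptors spread more than in the vestibule, with coefficients of variation of 31.2% and 37.4% against 7.44% and 17.1%.

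Macrophage transcripts moved in the same direction as the receptors. Of 12 macrophage markers, 11 were up-regulated in the vestibule, against 15.8% of all genes tested. Cd14 was not called (log2 fold change 0.62, edgeR adjusted p = 0.288), and the median log2 fold change of the 12 markers was 1.86. Aif1 passed the filter only through the vestibule. Their summed level was 115 to 137 CPM in the cochlea and 491 to 516 CPM in the vestibule, with Mrc1 giving the most counts in the vestibule and Csf1r or Laptm5 in each cochlear library. The receptors were therefore set against the marker counts of the same library. C3ar1 had 40.0, 24.8 and 35.9 counts per 1000 macrophage marker counts in the cochlear libraries, against 26.0, 28.4 and 23.8 for the vestibule. C5ar1 had 8.37, 5.74 and 12.2 in the cochlear libraries, against 9.33, 11.8 and 13.4 for the vestibule. On this scale the tissues overlapped for each receptor. The difference was -7.49 for C3ar1 and 2.77 for C5ar1, each with p = 0.3 in a two-sided exact permutation test over 3 against 3 libraries, where the smallest possible p is 0.1. With Mrc1 left out of the markers, the differences were -2.28 and 6.10, with exact permutation p-values of 0.8 and 0.2. Single libraries moved these values too. The difference for C3ar1 was -4.25 without cochlea replicate 1 and -11.9 without cochlea replicate 2, and that for C5ar1 was 1.26 without cochlea replicate 2, 1.82 without vestibule replicate 3 and 4.47 without cochlea replicate 3. Whether macrophages carry these receptor transcripts here was not tested.

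**Figure D2:**
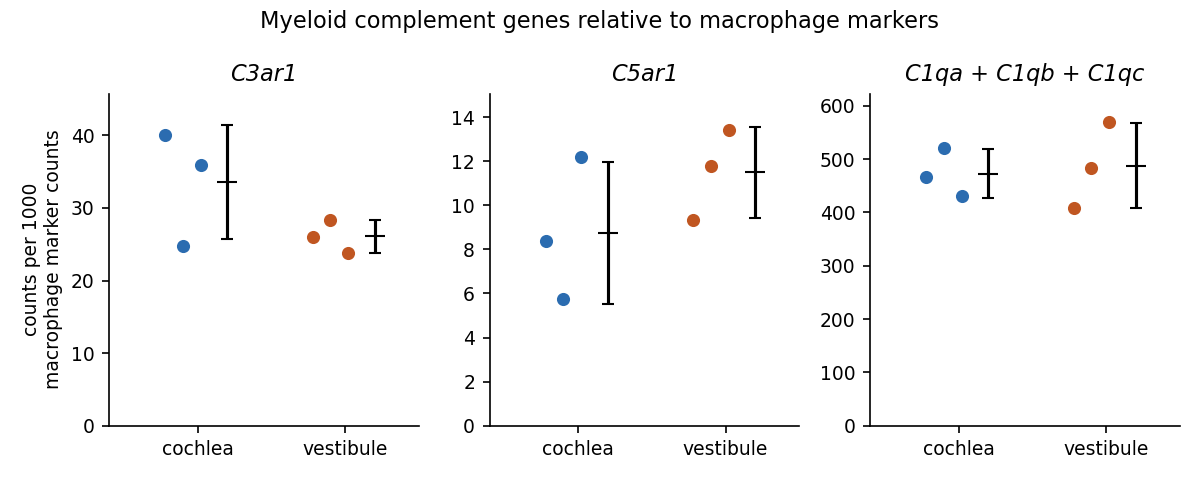
Counts per 1000 macrophage marker counts (vertical axes, starting at 0) of C3ar1, C5ar1 and the 3 C1q chains, in 3 cochlear (blue) and 3 vestibular (orange) libraries, with the mean and SD in black. The tissues overlap in each panel, with C1q at 409 to 569 in all 6 libraries.

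Markers of other cell types were read the same way. Of 7 neutrophil markers, 2 passed the filter, S100a8 (35 to 69 counts per library) and S100a9 (35 to 96), and neither was called. Ngp had 7 to 27 counts and Camp 6 to 17. Ly6g was at 0 in all libraries and Mpo and Elane had at most 3 counts. Of 6 hepatocyte markers only Ttr, which other tissues express too, passed the filter. Alb, the defining transcript of the liver, had 1 count in 1 library and 0 in the other 5. Endothelial markers were higher in the vestibule for 4 of 6 genes, with a summed level of 178 to 237 CPM in the cochlea and 391 to 546 CPM in the vestibule. Markers of fibroblasts and mesenchyme were higher there for 4 of 8, at 5110 to 5820 CPM against 7940 to 9170 CPM, while 1 of each list was higher in the cochlea, Emcn and Lum. Hair cell markers were higher in the vestibule for 4 of 7 genes (535 to 735 CPM against 932 to 1220 CPM in sum), and supporting cell markers in the cochlea for 3 of 5 (469 to 543 CPM against 296 to 319 CPM). Most of the difference in each of these sums lay in a single gene. Kdr was at 12.9 to 19.9 CPM in the cochlea and 202 to 263 CPM in the vestibule, and Col1a2 at 1870 to 2500 against 4620 to 5250 CPM. Otof was at 53.5 to 102 against 307 to 530 CPM, and Jag1 at 226 to 299 against 99.4 to 104 CPM. Over all genes tested, 15.8% were up-regulated in the vestibule and 11.6% in the cochlea. The part of these cells in the member values was not tested.

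Per gene length, the order of the members differed between the tissues. The authors' log2 RPKM, which is scaled to gene length, covers the 8 tested members. In the cochlea the mean levels were 3.04 for Cfi, 2.79 for Serping1 and 2.76 for Masp1, and these neighbours overlapped in their libraries. C3ar1 followed at -0.07 and stood apart from its neighbours on each side. C5ar1 (-1.30), C3 (-1.63), C2 (-2.11) and C4b (-2.93) came last, and each overlapped the next. In the vestibule Serping1 was first at 3.73, apart from Masp1 at 2.34, and Masp1 was apart from C3ar1 at 1.61. C3ar1 overlapped Cfi at 1.58, which was apart from C5ar1 at 1.17. C2 at -0.57 was apart from C4b at -1.17, and C4b overlapped C3 at -1.43. Cfi was thus first of 8 in the cochlea and the fourth in the vestibule, while C3 was among the 3 lowest in each tissue.

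**Figure D3:**
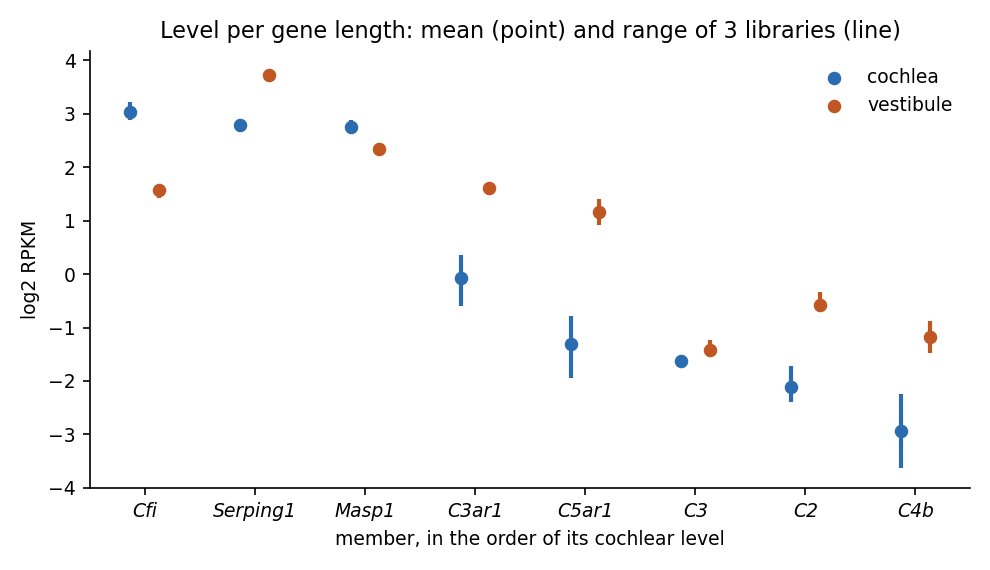
Level per gene length (vertical axis, the authors' log2 RPKM) of the 8 members in the deposited matrix, ordered by their cochlear mean; points are means and lines run from the lowest to the highest of 3 libraries. Cfi, Serping1 and Masp1 lie above 1.4 in each tissue, and C3 lies between -1.72 and -1.23.

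The members were placed in a wider list of 53 complement genes, of which 28 passed the filter, the 8 members among them. Of these 28 genes, 15 were up-regulated in the vestibule and 6 in the cochlea, with a median log2 fold change of 0.86 against 0.00 over all genes tested. For the 20 genes that are no members, the counts were 10 and 4. Over all genes tested, 15.8% and 11.6% were called in these directions. Among the genes that are no members, Fcna, Colec11 and Itgb2 passed the filter only through the vestibule.

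Upstream of C2 and C4b, the 3 chains of C1q were all higher in the vestibule. C1qa had a log2 fold change of 1.74, C1qb 2.04 and C1qc 2.05, with edgeR adjusted p-values of 0.000448, 5.79e-05 and 4.92e-05. C1qb, for example, was at 17.6 to 20.1 CPM in the cochlea and 75.1 to 98.6 CPM in the vestibule. Together the 3 chains had 466, 521 and 431 counts per 1000 macrophage marker counts in the cochlear libraries, against 409, 484 and 569 for the vestibule (difference 14.8, exact permutation p = 0.9, two-sided). Without Mrc1 the difference was 139 and the tissues no longer overlapped, at 515 to 609 against 610 to 802 (exact permutation p = 0.1, the smallest possible). The sign of the difference also turned with single libraries, to -6.11 without cochlea replicate 3 and -25.8 without vestibule replicate 3, while it was 38.9 without cochlea replicate 2 and 53.9 without vestibule replicate 1. This ratio was added after the data had been seen. The C1 proteases moved apart. C1ra was higher in the vestibule (log2 fold change 0.90, edgeR adjusted p = 0.00856), and C1s1 was higher in the cochlea (-0.67, edgeR adjusted p = 0.0317), a call that was lost in 6 of 14 alternatives, with adjusted p-values of 0.0742 to 0.165, library sizes alone among them (-0.55). C1ra shares 35.9% of its 100-base windows with other transcripts, mostly C1rb, and C1s1 shares 18.2%, so both are uncertain.

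In the lectin pathway 2 recognition proteins went the opposite way to Masp1. Fcna, a ficolin, had a log2 fold change of 2.34 (edgeR adjusted p = 0.000108) and Colec11, a collectin, 2.04 (edgeR adjusted p = 0.00285). Without any 1 vestibular library Colec11 no longer passed the filter and has no call. Masp2, Mbl1, Mbl2, Fcnb and Colec10 did not pass the filter, and Mbl1 was at 0 in all 6 libraries. Colec10 had 2 to 3 counts in the cochlea and 21 to 30 in the vestibule, and 3.29 with no filter (log2 fold change, edgeR adjusted p = 0.000134). In the alternative pathway Cfp (properdin, which stabilizes its C3-cleaving enzyme) was at 1.31, 1.56 and 3.83 CPM in the cochlea and 14.3, 16.0 and 15.9 CPM in the vestibule. Its log2 fold change was 2.66 (edgeR adjusted p = 0.000854), with cochlea replicate 3 again the highest cochlear library. Without that library it was 3.27. Cfd, the protease that activates Cfb, had at most 2 counts in a library.

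The terminal pathway had few counts. Of its 7 genes only C8g passed the filter, at 1.98 to 3.97 CPM in the cochlea and 3.10 to 4.56 CPM in the vestibule, with a log2 fold change of 0.35 (edgeR adjusted p = 0.397). Hc, which encodes the fifth component and thus the precursor of the C5ar1 ligand, had 1, 4 and 6 cochlear counts and 22, 6 and 12 vestibular ones. C6, C8a and C8b had at most 2 counts in any library, and C7 at most 10. C9 had 4, 1 and 1 cochlear counts and 18, 14 and 15 vestibular ones, and with no filter its log2 fold change was 2.71 (edgeR adjusted p = 0.00511).

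Among the other soluble regulators, the inhibitors of the terminal complex were higher in the cochlea. Clu, a chaperone that also inhibits the terminal complex, was at 3300 to 5860 CPM in the cochlea and 149 to 172 CPM in the vestibule, with a log2 fold change of -4.98 (edgeR adjusted p = 9.13e-06). Vtn, another inhibitor of that complex, had -0.98 (edgeR adjusted p = 0.0304), and its call was lost in 6 of 14 alternatives, with adjusted p-values of 0.0568 to 0.126, library sizes alone among them (-0.86). C4bp and Cpn2 were at 0 in all 6 libraries, and Cpn1 had at most 4 counts.

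The membrane regulators, which protect a cell from complement on its own surface, had 1 call among 6 tested, where 27.4% of all genes were called. It was Susd4, at -0.81 (edgeR adjusted p = 0.00248), with 82.4 to 108 CPM in the cochlea and 57.9 to 59.5 CPM in the vestibule. Cr1l, the rodent regulator also known as Crry, was at 35.2 to 50.2 CPM in all libraries with a log2 fold change of 0.15 (95% interval -0.18 to 0.48). Cd55, Cd59a, Cd59b and Csmd1 had log2 fold changes of 0.27, 0.05, -0.22 and -0.19 and edgeR adjusted p-values of 0.406 or more. Cd46 had 5 to 34 counts in the cochlea and 8 to 56 in the vestibule, with the highest values in cochlea replicate 3 and vestibule replicate 1, as for Cfb.

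Of the other 6 complement receptors 2 were tested, and both were higher in the vestibule. Itgam and Itgb2, the chains of complement receptor CR3 on myeloid cells, had log2 fold changes of 1.63 and 1.88 (edgeR adjusted p = 0.000782 and 0.000639). Of the exonic bases of Itgam, 68.7% are also exons of another gene model in GENCODE vM21, Gm49368, and how reads there were treated was not tested. C5ar2, Cr2, Itgax and Vsig4 did not pass the filter, with at most 26, 9, 5 and 1 counts in a library. All 4 receptors tested were up-regulated in the vestibule, against 15.8% of all genes, though C5ar1 and Itgb2 passed the filter only through that tissue.

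**Figure D4:**
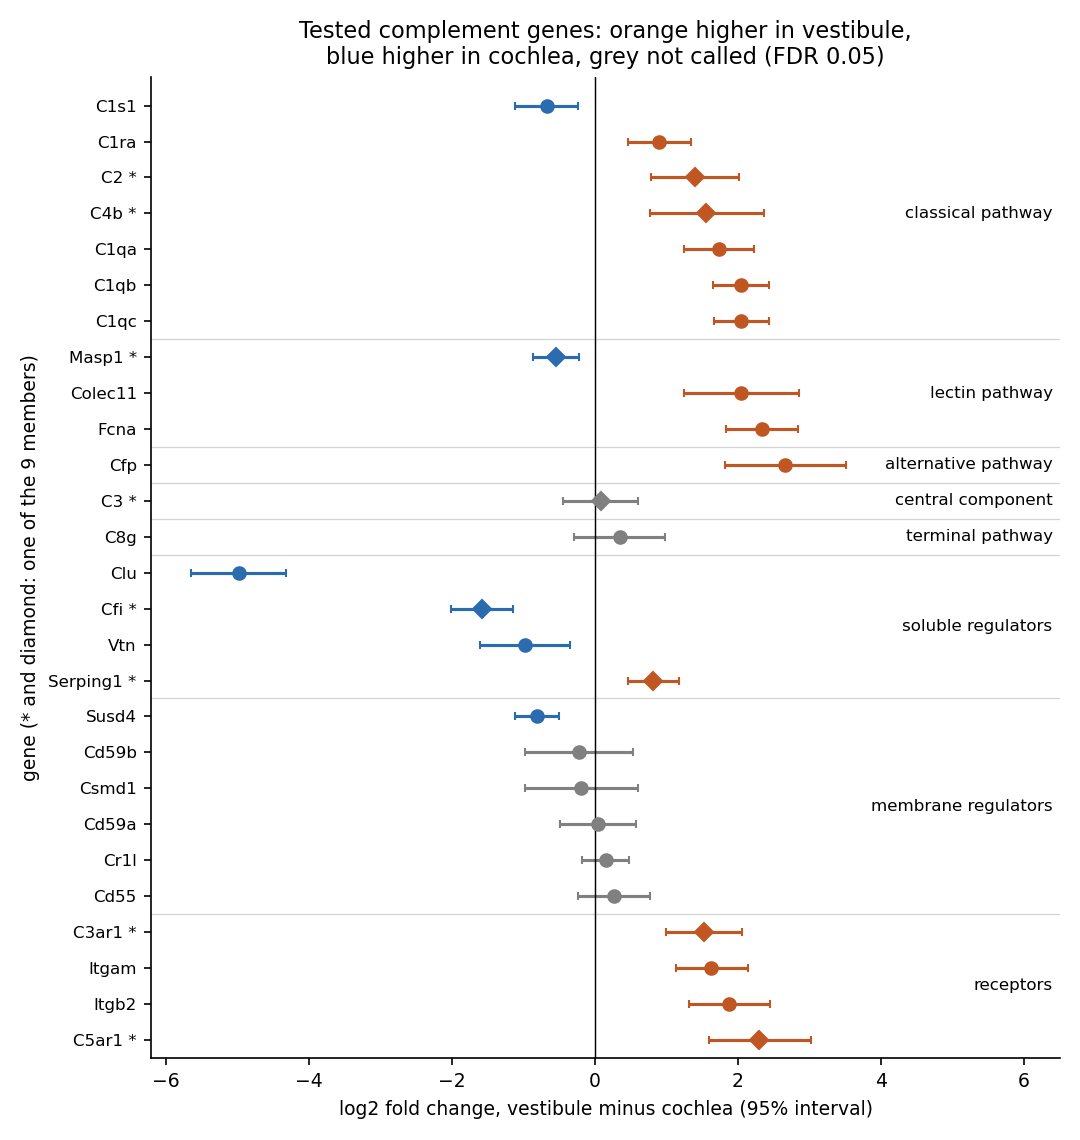
Log2 fold change, vestibule minus cochlea (horizontal axis, with 95% intervals from the edgeR fit), of 27 tested complement genes by role; diamonds and asterisks mark the 8 tested members, orange is higher in the vestibule, blue higher in the cochlea and grey not called. C1q and the receptors lie to the right, Clu and Cfi to the left, and 5 of 6 membrane regulators near 0.

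Several complement genes are known to be induced by interferon, and a list of 14 interferon-response genes was counted beside them. Irf7, Ifit3, Psmb8 and Psmb9 were up-regulated in the vestibule, with log2 fold changes of 1.40, 1.42, 1.17 and 0.95, and none in the cochlea. That is 4 of 14, where 15.8% of all genes tested were up-regulated in the vestibule and 27.4% were called in either direction. The other 10, Irf1 among them, were not called. The median of the list was 0.49.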

How the data were processed

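RNA-seq of 3 cochlear and 3 vestibular libraries was analysed, grouped by their titles. The authors aligned 100 bp paired reads with TopHat2 2.1.0 to GRCm38 (Ensembl release 74) and deposited raw counts per gene from HTSeq 0.5.4p5; the counting mode and strand setting are not given in the sources used here. They also deposited log2 RPKM for 14722 genes, made with edgeR 3.4.2. Over 12530 genes with at least 50 counts in every library it differed from the counts divided by library size by a constant per gene, within 0.02, so it holds no TMM scaling. The summary lines of the count files, 18.5% to 20.6% of listed counts, stayed out.

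The count test was edgeR 4.0.16 (R 4.3.3, TMM, quasi-likelihood) on genes reaching 1 CPM in at least 3 libraries (Benjamini-Hochberg over all genes, FDR 0.05); standard errors come from the F statistic. The test was checked on simulated data. The ratios to macrophage markers used an exact permutation test (scipy 1.17.1). Symbols and coordinates are from GENCODE vM21 (GRCm38). The members and lists were chosen with earlier results of these data known. Named were all members, the tested genes of the wider list, the 3 genes most like C3, and defining or most abundant markers; untested complement genes, other single markers and the interferon genes were named after their values were seen. One name on the wider list, C1s, matched no symbol, and 1 tested gene of it is counted but not reported by name here. Alternatives were DESeq2 1.42.0, limma-voom (limma 3.58.1), edgeR's exact test, other scalings and filters, a looser threshold (FDR 0.1, fold change 1.3), a replicate block, summed copies, and leaving out each library. Figures were drawn with matplotlib 3.10.9.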

Additional observations from a re-analysis of the deposited data

How the results depend on the processing

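Of 114 values for the 8 tested members under the alternatives, 108 kept direction and call, 6 lost the call (all for Masp1) and 0 reversed. The 5 members higher in the vestibule stayed 5 under every alternative run. The members higher in the cochlea numbered 2, but 1 with library sizes alone, 1 with the replicate block (Masp1, edgeR adjusted p = 0.0991) and 1 to 2 with each library left out. On the wider list 6 were higher in the cochlea, but 3 with library sizes alone, 3 with the replicate block and 3 to 6 with each library left out. The 15 higher in the vestibule were 14 to 15 with each library left out, 18 with no filter and 18 with edgeR's own filter. C1s1 and Vtn lost their calls in 6 of 14 alternatives each. Library sizes alone moved the median over all genes to 0.13 (log2), with 2754 genes up-regulated in the vestibule and 1251 in the cochlea, against 2325 and 1711 with TMM. With each library left out these were 1342 to 2694 and 925 to 1863, the fewest without vestibule replicate 2. Uncalled Cd59a, Cd59b and Csmd1 changed sign with 1 library left out, with ranges of -0.11 to 0.26 (-0.01 without cochlea replicate 1), -0.46 to 0.18 and -0.57 to 0.02. The replicate numbers do not pair the libraries, since deviations of same-numbered libraries correlated at -0.175, -0.260 and -0.474; with the block 1009 genes were higher in the cochlea and 1609 in the vestibule. Without Mrc1 in the macrophage list, the difference in counts per 1000 was 6.10 for C5ar1 and 139 for C1q. The cause of these changes was not tested. Depth limits Cfb, C4a and the terminal components, which had few counts.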
